A study of Homo sapiens with 27 samples.

Results

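Cadherins are single-pass adhesion proteins whose extracellular repeats bind calcium and pair with cadherins on the neighbouring cell. Classical cadherins carry a cytoplasmic tail that holds the catenins, which link the junction to actin, and cells that carry the same cadherin tend to sort together. Mesenchymal and bone-forming cells are known for N-cadherin and OB-cadherin, epithelial cells for E-cadherin and P-cadherin, and blood vessel endothelium for VE-cadherin. The 8 genes described here were taken by symbol from the gene rows of the count files, and all 8 had a row among 55882 genes. They were the type I cadherins CDH1 (E-cadherin), CDH2 (N-cadherin), CDH3 (P-cadherin) and CDH4 (R-cadherin), the type II cadherins CDH6 (K-cadherin) and CDH11 (OB-cadherin), the vascular endothelial cadherin CDH5, and CDH13 (T-cadherin). CDH13 is held to the membrane by a lipid anchor and has no cytoplasmic tail, so it is not a classical cadherin in the strict sense.

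The 27 libraries were mRNA-Seq of U2OS, a human osteosarcoma cell line, in 9 groups of 3. A control line, titled WT in the labels and described there as carrying a blank pLKO.1 vector, and 2 lines carrying shRNAs against MMP2, the gelatinase MMP-2, called MMP2sh1 and MMP2sh2, were each sampled at 3 stages of expansion. Subconfluent cells were taken at day -2, confluent cells at day 0 and overconfluent cells at day 2. All 3 lines were stable lentiviral transductants, so each shRNA was represented by a single transduced line, and the growth medium remained a source of extracellular MMP-2. The study describes the 3 libraries of a group as biological replicates. Total counts ran from 33580129 to 59374327 per library. MMP2 itself was measured at 232 ± 14.2, 325 ± 6.97 and 490 ± 8.5 CPM (SD, n = 3) in subconfluent, confluent and overconfluent control cells, where CPM (edgeR's library-size scaled unit) is a gene's count relative to all reads on genes in that library, after TMM scaling. The corresponding MMP2 means were 40.1, 59.1 and 97.1 CPM in MMP2sh1 and 144, 158 and 278 CPM in MMP2sh2, so the labels of the lines held at every stage and the reduction was smaller in MMP2sh2. Of the osteoblast genes checked, COL1A1 (at least 1005 CPM), SPARC (at least 1182 CPM) and RUNX2 (at least 29.98 CPM) were present in every library, whereas SP7 and IBSP, which mark committed osteoblasts, did not exceed 0.168 CPM and COL1A2 and BGLAP did not exceed 0.683 CPM.

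CDH2 was the most abundant of the 8 cadherins, with CDH4, CDH11 and CDH13 after it, while CDH1, CDH3, CDH5 and CDH6 gave few reads. Levels of different genes were compared as CPM per kilobase of the canonical transcript, averaged over the 9 groups. On that scale CDH2 stood at 32.3, CDH4 at 9.63, CDH11 at 5.26 and CDH13 at 4.36, whereas CDH6 stood at 0.196, CDH1 at 0.162, CDH5 at 0.0599 and CDH3 at 0.0275. Among 19 cadherin genes in all, these 8 with the other classical cadherins, CDH24, a type II cadherin, held the rank after CDH2 at 21.8 CPM per kilobase. CDH24 ranked above CDH2 in all 9 groups when the length of all annotated exons was used instead, so the order of these 2 genes depended on the length chosen. The order of CDH11 and CDH13 depended on the group: CDH13 lay above CDH11 in 5 of 9 groups, and in 6 of 9 with the exon length. CDH11 lay above CDH4 in overconfluent control cells (8.05 against 6.03 CPM per kilobase). With the exon length CDH11 lay below CDH4 there (4.08 against 5.36), so that order depended on the length too. CDH2 made up 43.2% of the summed per-kilobase level of the 19 genes in subconfluent control cells and 35.1% in overconfluent control cells, while the part of CDH11 was 4.59% and 12.8%.

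Of the 8 genes, 5 lie on chromosome 16, on the same arm as MMP2. In GRCh37 coordinates these are CDH11 (chr16:64977656-65160015, minus strand), CDH5 (chr16:66400593-66438687), CDH3 (chr16:68670092-68761371), CDH1 (chr16:68771195-68869440) and CDH13 (chr16:82660570-83834245), the last 4 on the plus strand. The distance from MMP2 ranged from 9.44 Mb for CDH11 to 27.1 Mb for CDH13. CDH2 lies at chr18:25512843-25757910 on the minus strand, CDH4 at chr20:59827317-60515673 and CDH6 at chr5:31193793-31329253 on the plus strand. Reads were counted over exons without regard to strand, and 21.35% of the annotated exon bases of CDH13 overlap the antisense gene CDH13-AS2. How reads over those bases entered the CDH13 count depends on whether the authors' annotation held CDH13-AS2, which is not known. The overlap with other genes was at most 9.92% for the other 7.

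RefSeq promoter sequences (GRCh38.p14) were at hand for CDH2 and CDH4, the most abundant pair of members, and are shown because both genes fell during expansion. Each window holds the 250 bases before an annotated start, 5′ to 3′ on the gene's strand, and capitals mark the E-box letters CAGGTG or CACCTG, the sequence that the SNAI and ZEB repressors are known to bind. The CDH2 window is chr18:28177131-28177380 (minus strand). The CDH4 window is chr20:61499171-61499420 (plus strand), before a start that lies within the gene.
CDH2: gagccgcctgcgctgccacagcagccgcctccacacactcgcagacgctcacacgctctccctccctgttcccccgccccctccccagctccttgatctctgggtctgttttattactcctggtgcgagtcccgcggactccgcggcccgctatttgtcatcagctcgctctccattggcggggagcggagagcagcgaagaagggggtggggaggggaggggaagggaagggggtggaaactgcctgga
CDH4: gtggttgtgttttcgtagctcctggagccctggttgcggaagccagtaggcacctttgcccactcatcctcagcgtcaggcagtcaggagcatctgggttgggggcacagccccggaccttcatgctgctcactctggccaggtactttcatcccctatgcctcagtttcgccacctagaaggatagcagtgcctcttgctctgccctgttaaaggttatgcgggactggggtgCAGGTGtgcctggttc
The CDH4 window held 1 match and the CDH2 window held 0. A second window of each gene, not printed, held 0 matches, so the CDH4 window shown is the only 1 of the 4 with a match. The second CDH4 window lies further downstream, so neither CDH4 window covers the 5′ end of the gene. Either form of the E-box was present in 17.5% of 35116 windows of this length, and the matches are a description of the letters only.

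During expansion of control cells, CDH2, CDH4, CDH13 and CDH1 fell and CDH11 rose. This comparison asks how the adhesion genes of U2OS cells with the blank vector change with density. CDH3 did not pass the filter on low counts. Of the 7 genes tested in overconfluent against subconfluent control cells, 5 passed an adjusted p of 0.05 (edgeR quasi-likelihood test, Benjamini-Hochberg adjustment over all genes), 1 higher and 4 lower. The background was high: 56.8% of all genes tested were called in that comparison, 28.1% higher and 28.6% lower, so being called was by itself ordinary. The median log2 fold change of the 7 tested was -0.73, against 0.03 over all genes tested. In bulk samples, fewer cells of a type and less RNA per cell cannot be told apart.

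CDH2, the main cadherin of mesenchymal cells, was measured at 155, 154 and 154 CPM in the subconfluent control libraries. Confluent control libraries gave 121, 121 and 123 CPM, and overconfluent control libraries gave 101, 86.7 and 79.2 CPM. The 3 stages did not overlap, and the mean at overconfluence was 57.6% of that before confluence. The log2 fold change of CDH2 was -0.79 (SE 0.062, edgeR adjusted p = 1.99e-11). CDH4, best known from retina and brain, was measured at 65.9, 68.9 and 67.1 CPM in subconfluent, at 49.3, 51.8 and 50.1 CPM in confluent, and at 40.2, 40.2 and 40.5 CPM in overconfluent control libraries. It too stepped down with no overlap, with a log2 fold change of -0.73 (SE 0.058, edgeR adjusted p = 2.3e-11).

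CDH11, a cadherin of osteoblasts and other mesenchymal cells, moved in the opposite direction. Its control libraries gave 24.5, 28.3 and 29.5 CPM before confluence, 38.2, 39.3 and 38 CPM at confluence and 59, 53.3 and 50 CPM after it. Every later stage lay above the earlier one, and the level came to 197% of the starting mean (log2 fold change 0.99, SE 0.076, edgeR adjusted p = 1.26e-11). CDH13, the lipid-anchored member, gave 50.8, 49.3 and 48 CPM in subconfluent and 37, 39.9 and 37 CPM in confluent control libraries. Its overconfluent control libraries gave 17.3, 12.1 and 15.9 CPM, or 30.6% of the starting mean (log2 fold change -1.70, SE 0.091, edgeR adjusted p = 8.38e-15). Most of the drop of CDH13 came after confluence, with a log2 fold change of -0.37 up to confluence and -1.31 from there on, each called.

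The individual steps were called for the same 4 abundant genes in control cells. From subconfluent to confluent control cells, 5 of 7 cadherins tested were called, against 35.5% of all genes, and from confluent to overconfluent control cells 6 of 7 were called, against 41.4%. CDH6 was among the latter, at 2.31-fold of its confluent mean, and its log2 fold change moved from 1.22 to 1.85 without confluent replicate 1.

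**Figure D1:**
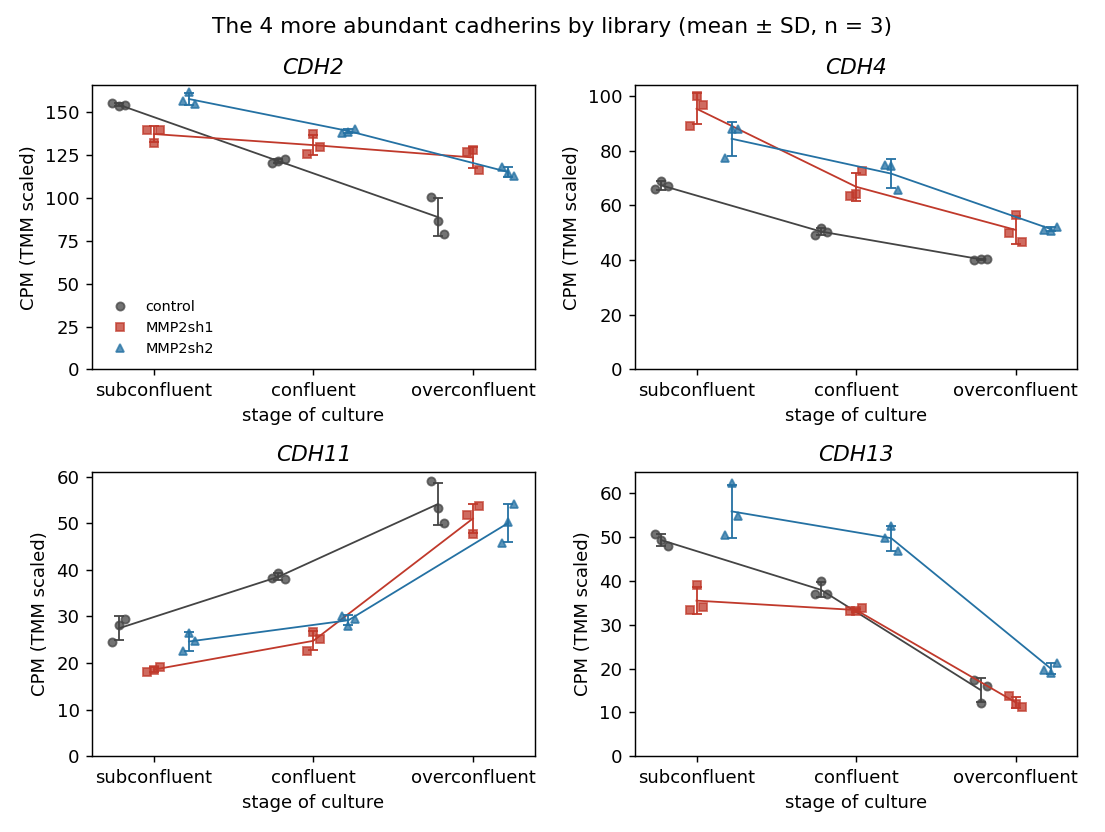
CPM after TMM scaling (vertical axis, from 0) of CDH2, CDH4, CDH11 and CDH13 at the 3 stages of culture (horizontal axis) in control, MMP2sh1 and MMP2sh2 libraries; points are libraries, bars the mean ± SD of 3 and lines join the means. CDH4 lay above control in both shRNA lines at each stage, CDH11 rose in all 3 lines, and the decline of CDH2 was shallowest in MMP2sh1.

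Both shRNA lines showed the same directions for CDH4, CDH11 and CDH13 during expansion as control, and CDH2 changed less than in control. In overconfluent against subconfluent MMP2sh1 cells, 7 of 7 tested cadherins were called (54.9% of all genes), and in MMP2sh2 cells 6 of 6 (54.7% of all genes). CDH11 reached 274% of its subconfluent mean in MMP2sh1 (log2 fold change 1.45, SE 0.081) and 203% in MMP2sh2 (1.03, SE 0.083). CDH13 came to 34.6% and 35.8% of its subconfluent mean, and CDH4 to 53.5% and 60.9%.

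CDH2 in MMP2sh1 was measured at 140, 132 and 140 CPM in subconfluent, 125, 137 and 130 CPM in confluent, and 127, 128 and 116 CPM in overconfluent libraries. Neighbouring stages overlapped, and the log2 fold change over the whole expansion was -0.15 (SE 0.063, edgeR adjusted p = 0.0403), a call that was lost in 7 of 12 alternatives. These included leaving out subconfluent replicate 1 or 3 or overconfluent replicate 2 or 3, with -0.11 and an adjusted p of 0.208 without the last. In MMP2sh2 the CDH2 values were 156, 162 and 155, then 138, 139 and 140, then 118, 114 and 113 CPM, with no overlap between stages and a log2 fold change of -0.45 (SE 0.059, edgeR adjusted p = 1.25e-07).

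The difference between lines in the response to expansion was tested as an interaction over 12 libraries. CDH2 declined less than in control in MMP2sh1, by 0.65 on the log2 scale (SE 0.092, edgeR adjusted p = 2.25e-05), and in MMP2sh2, by 0.34 (SE 0.087, edgeR adjusted p = 0.0155). The MMP2sh2 value was 0.28 with an adjusted p of 0.0788 without control overconfluent replicate 3. CDH11 rose more than in control in MMP2sh1 (interaction 0.47, SE 0.11, edgeR adjusted p = 0.00802), whereas in MMP2sh2 the interaction was 0.04 (SE 0.12, adjusted p = 0.914). In all, 2 cadherins were called in each interaction, of at most 8 tested, and CDH3 was not tested in that of MMP2sh1. Of all genes tested, 7.4% were called for MMP2sh1 and 4.98% for MMP2sh2. Both interactions share the same 6 control libraries. That of CDH4 was -0.16 (SE 0.096) in MMP2sh1 and 0.02 (SE 0.089) in MMP2sh2, neither of them called.

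The steps in the shRNA lines differed between genes: CDH11, CDH13 and CDH6 had larger log2 fold changes after confluence than before it, a difference that was not tested, whereas CDH4 in MMP2sh1 fell by 0.51 before and by 0.38 after it on the log2 scale. From subconfluent to confluent, 2 of 6 cadherins tested were called in MMP2sh1 (32.7% of all genes) and 3 of 7 in MMP2sh2 (30.3% of all genes), with CDH4 lower and CDH11 higher in both and CDH2 lower in MMP2sh2. In MMP2sh2 the CDH4 step was lost without confluent replicate 3 (adjusted p = 0.0703), and the CDH11 step without subconfluent replicate 1, confluent replicate 1 or confluent replicate 3 (adjusted p from 0.0962 to 0.162). From confluent to overconfluent, 5 of 7 were called in MMP2sh1 (46% of all genes) and 6 of 7 in MMP2sh2 (45.5% of all genes). CDH11 rose 2.06-fold and 1.71-fold over that step, against 1.41-fold in control cells.

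The comparison of each shRNA line with control at a fixed stage asks whether MMP2 depletion is accompanied by another level of these genes. CDH4 was higher in both lines at all 3 stages. MMP2sh1 libraries gave 89.1, 100 and 96.7 CPM before confluence, 63.4, 64.3 and 72.7 CPM at confluence and 49.9, 56.5 and 46.7 CPM after it. MMP2sh2 libraries gave 77.2, 88 and 87.9, then 74.9, 74.4 and 65.5, then 50.9, 50.8 and 52.3 CPM. None of these 18 libraries overlapped the control libraries of its stage. The log2 fold change of CDH4 was 0.50, 0.40 and 0.34 in MMP2sh1 and 0.32, 0.49 and 0.35 in MMP2sh2 at the 3 stages in order, with SE from 0.059 to 0.072 and a largest edgeR adjusted p of 0.00169. Each of the 6 calls held in every alternative run. CDH4 was also the only gene of all those listed, MMP2 itself aside, that was called in the same direction in all 6 comparisons. The lists included the catenins and other related genes. The share of all genes that met this rule was not computed. The 2 lines share their control libraries at each stage, so their values are 2 readings against the same 3 libraries.

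**Figure D2:**
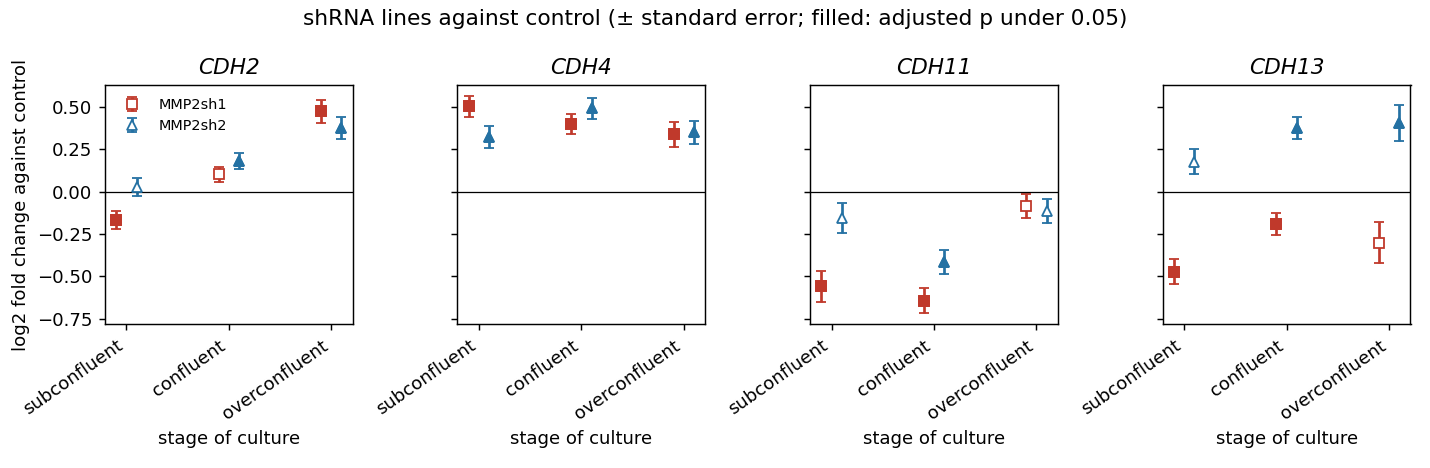
log2 fold change against control (vertical axis) of CDH2, CDH4, CDH11 and CDH13 in MMP2sh1 (squares) and MMP2sh2 (triangles) at each stage of culture (horizontal axis); bars are standard errors and filled symbols have an edgeR adjusted p under 0.05. CDH4 lay between 0.32 and 0.50 throughout, CDH13 took opposite signs in the 2 lines, and CDH11 returned to near 0 at overconfluence.

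CDH11 was lower in both shRNA lines at confluence, lower in MMP2sh1 alone before it, and not detectably different from control in either line after it. Before confluence MMP2sh1 gave 18, 18.6 and 19.2 CPM, all below control (log2 fold change -0.56, SE 0.09, edgeR adjusted p = 0.000127). MMP2sh2 gave 22.6, 26.5 and 24.8 CPM at that stage, overlapping control (log2 fold change -0.16, SE 0.088, adjusted p = 0.285). At confluence MMP2sh1 gave 22.5, 26.6 and 25.2 CPM and MMP2sh2 30.1, 28 and 29.5 CPM, and both lay below all control libraries, with log2 fold changes of -0.64 (SE 0.073) and -0.41 (SE 0.07). After confluence the ranges overlapped control, at 51.8, 47.6 and 53.7 CPM in MMP2sh1 and 45.8, 50.3 and 54.1 CPM in MMP2sh2. The log2 fold changes there were -0.09 (SE 0.071) and -0.11 (SE 0.072).

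CDH13 separated the 2 shRNA lines from each other rather than both from control. Its MMP2sh1 libraries gave 33.4, 39.1 and 34.1 CPM before, 33.3, 33.1 and 33.8 CPM at and 13.8, 11.9 and 11.2 CPM after confluence. Its MMP2sh2 libraries gave 50.5, 62.4 and 54.8, then 49.8, 52.7 and 46.9, then 19.6, 19.1 and 21.4 CPM. At each stage every MMP2sh1 library lay below every MMP2sh2 library, with log2 fold changes of -0.66, -0.56 and -0.71 between the lines (largest edgeR adjusted p = 4.67e-05). Against control, CDH13 was lower in subconfluent MMP2sh1 cells (-0.47, SE 0.074, adjusted p = 8.99e-05) and higher in confluent MMP2sh2 cells (0.37, SE 0.066, adjusted p = 0.000107).
The confluent MMP2sh1 value of CDH13 (-0.19, adjusted p = 0.0442) lost its call in 8 of 12 alternatives, which included leaving out any 1 of the 6 libraries (adjusted p from 0.0506 to 0.189). The overconfluent MMP2sh2 value (0.41, adjusted p = 0.011) lost its call without control replicate 2 (0.27, adjusted p = 0.218) or without MMP2sh2 replicate 3 (0.36, adjusted p = 0.0515). The overconfluent MMP2sh1 value (-0.30, SE 0.12, adjusted p = 0.0936) was not called, and gained a call without control replicate 2 (-0.44, adjusted p = 0.0157) or MMP2sh1 replicate 1 (-0.39, adjusted p = 0.0313).

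CDH2 was above control in both shRNA lines at overconfluence, at 139% of the control mean in MMP2sh1 (log2 fold change 0.47, SE 0.069, edgeR adjusted p = 8.92e-06) and 130% in MMP2sh2 (0.37, SE 0.065, adjusted p = 8.68e-05). The control libraries at that stage were the most spread of any group for this gene, from 79.2 to 101 CPM, and still lay below the lowest shRNA library at 113 CPM. At confluence the values were 0.10 (SE 0.046, not called) in MMP2sh1 and 0.18 (SE 0.046, called) in MMP2sh2. Before confluence CDH2 was lower in MMP2sh1 (-0.17, edgeR adjusted p = 0.0391), a call lost in 6 of 12 alternatives, including without any 1 control library (adjusted p from 0.0866 to 0.168), without MMP2sh1 replicate 2 (0.15) and without MMP2sh1 replicate 3 (0.0566). It was 0.03 (SE 0.052) in MMP2sh2.

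Counted over the cadherins tested, the shRNA comparisons gave these totals. In subconfluent cells 4 of 6 were called in MMP2sh1, 1 higher and 3 lower, where 11.6% of all genes were called (5.42% higher, 6.14% lower), and 1 of 6, higher, in MMP2sh2, where 11% were called (4.71% higher, 6.33% lower). In confluent cells 3 of 7 were called in MMP2sh1, 1 higher and 2 lower, against 16.8% of all genes (8.26% higher, 8.58% lower), and 4 of 7 in MMP2sh2, 3 higher and 1 lower, against 12.9% (7.07% higher, 5.81% lower). In overconfluent cells 3 of 6 were called in MMP2sh1, all higher, against 14.8% of all genes (7.68% higher, 7.11% lower). In MMP2sh2 4 of 6 were called at that stage, all higher, against 6.32% (2.89% higher, 3.43% lower). These shares of all genes moved with single libraries: without control subconfluent replicate 1, 728 of 19415 genes were called in subconfluent MMP2sh2 against control instead of 2080 of 18845. Without control overconfluent replicate 3, 679 of 20125 were called in overconfluent MMP2sh2 against control instead of 1222 of 19339. The 4 abundant cadherins had 465 to 8971 counts per library, which gives their differences smaller errors than those of genes with few reads.

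Between the 2 shRNA lines, 3 of 6 cadherins tested were called before confluence (10.7% of all genes), 2 of 6 at confluence (18.5%) and 1 of 6, CDH13, after it (7.86%). CDH11 was lower in MMP2sh1 than in MMP2sh2 before confluence (-0.41, edgeR adjusted p = 0.00532), a call lost without MMP2sh2 replicate 2 (adjusted p = 0.0536). Its confluent difference (-0.23, adjusted p = 0.0361) was lost when any of 4 libraries was left out, replicates 1 and 3 of either line (adjusted p from 0.0566 to 0.237). CDH2 was lower in MMP2sh1 before confluence (-0.20, adjusted p = 0.0321), and this call was lost without MMP2sh1 replicate 2 or 3 or MMP2sh2 replicate 1 or 2 (adjusted p from 0.0526 to 0.162).

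The balance of CDH11 to CDH2 within a library shifted with expansion in all lines and differed between them. Taken per kilobase, CDH2 exceeded CDH11 by 9.48 ± 0.979-fold in subconfluent, 5.28 ± 0.122-fold in confluent and 2.74 ± 0.104-fold in overconfluent control cells (SD, n = 3). The corresponding means were 12.4, 8.86 and 4.07 in MMP2sh1 and 10.8, 7.98 and 3.87 in MMP2sh2. The control libraries did not overlap those of either shRNA line at confluence or overconfluence. This ratio does not depend on how libraries were scaled. CDH2 over CDH13 was 6.14, 6.28 and 11.7 in control, 7.63, 7.69 and 19.8 in MMP2sh1 and 5.57, 5.49 and 11.3 in MMP2sh2, and rose after confluence in each line.

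**Figure D3:**
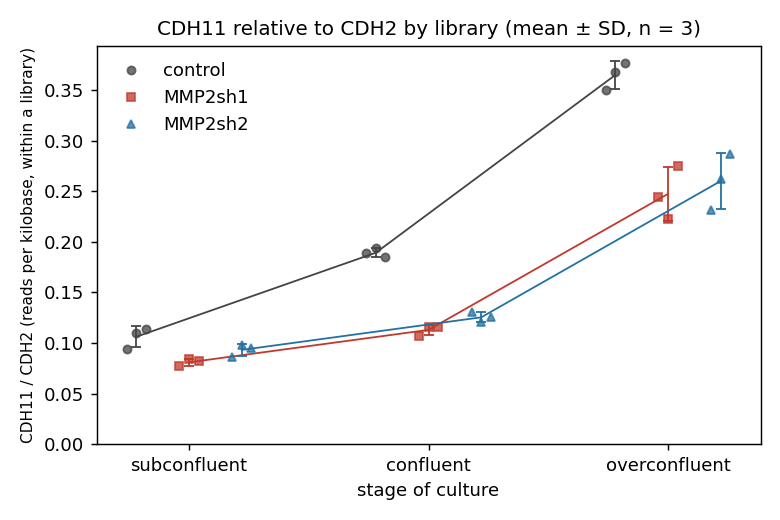
Ratio of CDH11 to CDH2 in reads per kilobase within each library (vertical axis, from 0) at the 3 stages of culture (horizontal axis) for control, MMP2sh1 and MMP2sh2; points are libraries, bars the mean ± SD of 3. Control rose from 0.106 to 0.365, and the overconfluent shRNA libraries lay between 0.223 and 0.287.

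Ordered by mean level over the 9 groups, many neighbouring groups overlapped. Of CDH2, CDH4, CDH11 and CDH13, only CDH4 stood apart from the next group at both ends. CDH2 was highest in subconfluent MMP2sh2 cells, whose range overlapped that of subconfluent control cells, and lowest in overconfluent control cells, below all other groups. CDH4 was highest in subconfluent MMP2sh1 cells and lowest in overconfluent control cells, with no overlap with the next group at either end. CDH11 was highest in the 3 overconfluent groups, whose ranges overlapped one another, and lowest in subconfluent MMP2sh1 cells, which stood apart. CDH13 was highest in subconfluent MMP2sh2 cells, which overlapped the next group, and lowest in overconfluent MMP2sh1 cells, which overlapped overconfluent control cells.

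The 4 scarce members behaved less evenly. CDH6, a cadherin of kidney and neural crest, was counted 78, 85 and 53 times in subconfluent, 66, 22 and 25 times in confluent and 77, 83 and 65 times in overconfluent control libraries. In MMP2sh1 the CDH6 counts were 46, 45 and 63, then 77, 61 and 46, then 129, 122 and 126. In MMP2sh2 they were 22, 59 and 28, then 22, 27 and 29, then 107, 151 and 160. The overconfluent shRNA libraries, at 2.59 to 3.78 CPM, exceeded all other libraries, and the control highest was 2.19 CPM. CDH6 rose over the whole expansion in MMP2sh1 (log2 fold change 1.34, SE 0.27, edgeR adjusted p = 0.000221) and in MMP2sh2 (1.96, SE 0.3, edgeR adjusted p = 1.83e-06), and was 0.25 (SE 0.28, adjusted p = 0.482) in control. The interaction was called for MMP2sh2 (1.72, SE 0.41, adjusted p = 0.00919) and not for MMP2sh1 (1.10, SE 0.38, adjusted p = 0.0749). With DESeq2 the MMP2sh1 interaction was called as well, at 1.09 (adjusted p = 0.0497). Against overconfluent control the calls of CDH6 were weak. The value of 0.71 in MMP2sh1 (adjusted p = 0.0357) was lost in 7 of 12 alternatives, which included leaving out any 1 library but control replicate 1, with adjusted p up to 0.161. The value of 0.78 in MMP2sh2 (adjusted p = 0.0327) was lost in 6 of 12, among them without control replicate 2 or 3 or MMP2sh2 replicate 2 or 3, with adjusted p up to 0.168.

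CDH1, the defining cadherin of epithelium, was present at trace level and fell with expansion in every line. It was counted 89, 39 and 87 times in subconfluent, 14, 12 and 45 times in confluent and 10, 0 and 3 times in overconfluent control libraries. The MMP2sh1 counts of CDH1 were 27, 48 and 97, then 78, 49 and 30, then 19, 1 and 1, and those of MMP2sh2 were 29, 54 and 35, then 44, 27 and 34, then 7, 5 and 1. No overconfluent library reached the lowest subconfluent library of its line. Summed over 3 libraries, subconfluent exceeded overconfluent 14.5-fold in control (exact 95% interval 8.28 to 27.6, counting error only), 7.87-fold in MMP2sh1 (4.99 to 13) and 9.09-fold in MMP2sh2 (5.12 to 17.6). Leaving out replicate 1 of the overconfluent libraries moved the fitted log2 fold change from -3.83 to -5.39 in control and from -2.93 to -5.64 in MMP2sh1. It was -3.23 without control overconfluent replicate 2 and -2.30 without MMP2sh1 subconfluent replicate 3. The decline was called in each line (edgeR adjusted p at most 0.00133) and in every alternative that tested the gene, except that in MMP2sh1 DESeq2 gave 0.0595. The 2 steps of the control series were less stable: the first (adjusted p = 0.00887) was lost without subconfluent replicate 3 (0.0818) or confluent replicate 1 (0.0602). The second (adjusted p = 0.0275) was lost with DESeq2 (0.0573) and without confluent replicate 3 (0.357), overconfluent replicate 2 (0.137) or overconfluent replicate 3 (0.113).
The summed level of the epithelial marker list also fell in every line from subconfluent to overconfluent cells, but its steps differed from those of CDH1. Of the 10 listed genes, 7 were tested in overconfluent against subconfluent control cells. Of these, 5 were called lower, in a comparison where 28.6% of all genes tested were called lower. They included DSP (desmoplakin, log2 fold change -2.88), OCLN (occludin, -0.79) and KRT8 (keratin 8, -0.57). The list summed to 554 to 597 CPM in subconfluent and 405 to 431 CPM in overconfluent control libraries, mostly from KRT8 and KRT18. At the 3 stages in order, the mean sum was 810, 528 and 477 CPM in MMP2sh1 and 689, 537 and 448 CPM in MMP2sh2. The CDH1 means were 1.38, 1.13 and 0.181 CPM in MMP2sh1 and 0.929, 0.962 and 0.104 CPM in MMP2sh2. Subconfluent control cells had a mean sum of 575 CPM and a CDH1 mean of 1.67 CPM. Before confluence the sum was thus higher than control in both shRNA lines, while the CDH1 mean was lower, with overlapping CDH1 ranges. Of the 10 genes, 6 had a mean of at least 1 CPM in subconfluent and 5 in overconfluent control cells. KRT19, CLDN7 and ESRP1 of this list stayed at or below 0.381 CPM in every library, as did GRHL2 of the transcription factor list. The part of these genes in the CDH1 result was not tested.

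CDH5 and CDH3 were at the edge of detection. CDH5 was counted 2, 1 and 0 times in subconfluent and 12, 15 and 13 times in overconfluent MMP2sh1 libraries, a 13.9-fold ratio with an exact 95% interval from 4.42 to 70.1 (counting error only), and that increase was called (edgeR adjusted p = 0.00198). Its fitted log2 fold change of 3.62 moved to 4.55 without subconfluent replicate 1. In control cells CDH5 was counted 17, 2 and 8 times before and 14, 12 and 25 times after confluence, which overlapped (adjusted p = 0.142). Not every listed endothelial marker was among the genes counted, and the summed list held 7 genes. Of these, KDR and EMCN stayed at or below 0.564 CPM in every library. The sum ran from 12.9 to 22.1 CPM, chiefly ERG, VWF and CLDN5. CDH3 was counted at most 23 times in any library and 0 times in 6 of them. It was tested only in the interaction of MMP2sh2, where it was not called (-0.61, SE 1.7).

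**Figure D4:**
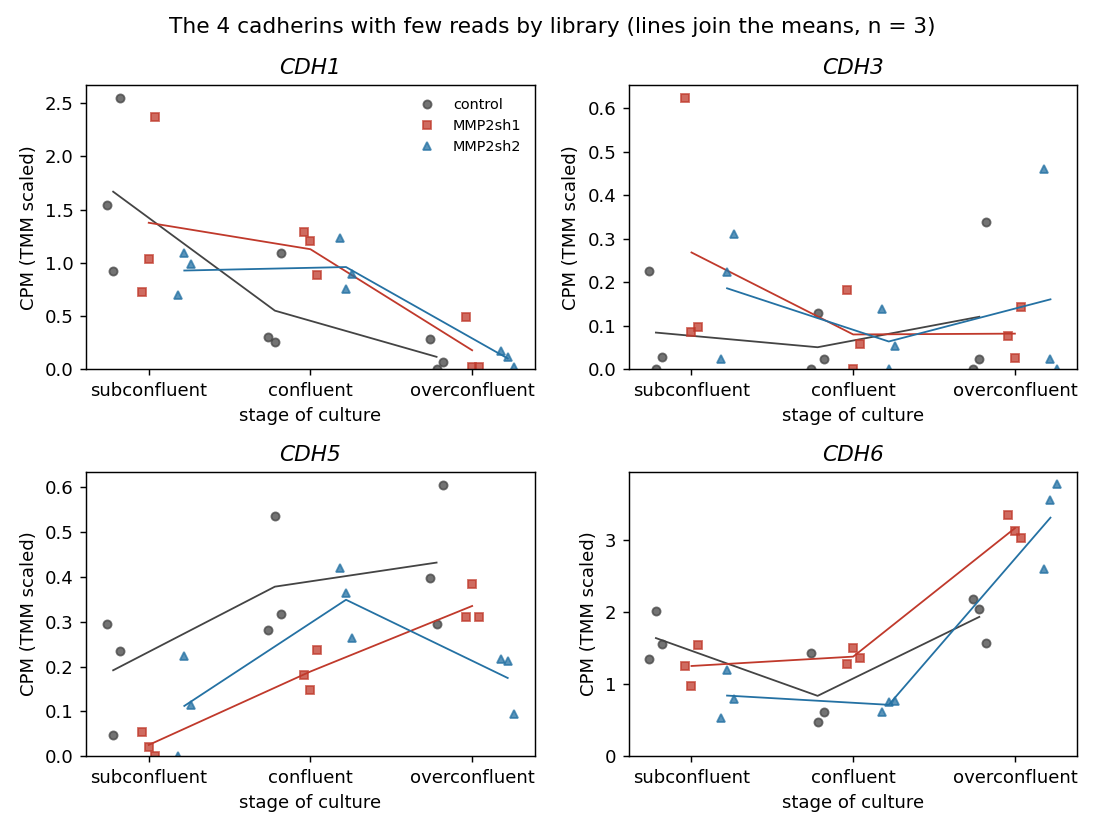
CPM after TMM scaling (vertical axes, from 0 and different in each panel) of CDH1, CDH3, CDH5 and CDH6 at the 3 stages of culture (horizontal axis) in control, MMP2sh1 and MMP2sh2; points are libraries and lines join the means of 3. CDH1 approached 0 after confluence in all lines, and CDH6 was highest in overconfluent shRNA libraries, at 2.59 to 3.78 CPM.

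Genes that work with the cadherins changed in mixed directions during control expansion, a comparison in which 56.8% of all genes were called, so the counts per list that follow are read against that share. Of 11 other classical cadherins, 7 were tested and 4 called, 2 higher and 2 lower, with CDH7 (1.98) and CDH12 (1.51) higher and CDH24 (-0.52) lower. Of 16 catenins and junction partners, 15 were tested, 5 rose and 6 fell. JUP, the plakoglobin that can take the place of beta-catenin in junctions, rose by 1.16 on the log2 scale, whereas CTNND2, a delta-catenin (-1.50), and PLEKHA7, a partner of p120-catenin (-1.45), fell. Of 12 transcription factors that act on cadherin genes, 8 were tested, 2 rose and 3 fell, among them ZEB1 (0.54), TCF3 (-0.56) and SNAI2 (-0.49). Of 9 genes of cadherin maturation and shedding, all were tested, 4 rose and 1 fell, with the sheddase ADAM17 (0.40) and the gamma-secretase subunit APH1B (0.30) higher. Of 9 osteoblast genes, 5 were tested and all were called, with SPP1 (osteopontin, 1.03) and RUNX2 (0.66) higher and ALPL (alkaline phosphatase, -1.18) lower. Of the endothelial list, 5 were tested, with ERG higher (0.98) and VWF lower (-0.70). In the 6 comparisons of an shRNA line with control, 2 to 4 of 14 to 16 junction partners tested were called per comparison, 0 to 3 of 7 to 9 transcription factors and 1 to 3 of 9 maturation genes, where 6.32% to 16.8% of all genes were called.

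The genes whose 9 group means followed each cadherin most closely were found by Pearson's correlation of log2 CPM among 15135 genes, as a description in which the points share stages and lines. For CDH4 these were OGFOD3 (r = 0.990), MFSD10 (0.988) and POLR3E (0.983). For CDH11 they were PCDHB11, a protocadherin (0.996), RP11-277P12.20 (0.991) and SORT1 (0.991). For CDH13 they were ADAMTS15 (0.988), MB21D2 (0.986) and DNMT3B (0.986). For CDH2 they were RP1-140K8.5 (0.968), NOM1 (0.967) and DYNC1H1 (0.964), and for CDH6 TFPI (0.974), LINGO2 (0.970) and SP100 (0.965). Among the members themselves, the correlation over the group means was 0.83 for CDH2 with CDH4 and -0.94 for CDH4 with CDH11.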

How the data were processed

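Reads of poly(A)-selected, paired-end libraries were trimmed by the authors (Trim Galore 0.6.0). STAR 2.7.3a placed them on hg19, and HTSeq 2.0.0 gave a count per gene (union mode, minimum alignment quality 10, no strand). The deposited counts are whole numbers per gene symbol. The annotation release they used is not given in the sources used here. The 5 summary lines of each file (16.77 to 19.1% of its total) were left out.

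Each comparison was fitted on its own 6 libraries (12 for an interaction) with edgeR 4.0.16 in R 4.3.3, using filterByExpr with a minimum count of 10, TMM scaling and the quasi-likelihood test. The p-values were adjusted by Benjamini-Hochberg over all genes tested, with an adjusted p under 0.05 as a call. The SE given with a log2 fold change was derived from the test, as its absolute value divided by the square root of the quasi-likelihood F statistic. There were 20 comparisons. Levels are CPM with TMM scaling over all 27 libraries. Alternatives were DESeq2 1.42.0, all libraries in 1 fit, median-of-ratios scaling, no or a stricter count filter, a replicate block and leaving out each library. The fits were tested on simulated data. Replicate libraries differed by more than sampling noise, so none was counted as a duplicate.

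All 8 members are named. From each related list the text names the up to 3 genes with the largest change among those called in control overconfluent against subconfluent cells, those called with 1 sign in all 6 shRNA comparisons, and the 3 genes most correlated with each member of at least 1 CPM. One gene that this rule would name is not reported here. Other marker genes named for being near 0 were chosen after their values were seen. The members and lists were chosen with earlier results of these data known. Positions and lengths come from GENCODE v44 lifted to GRCh37, which need not be the authors' annotation; all 19 cadherins matched by symbol.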

Additional observations from a re-analysis of the deposited data

Results flagged for a closer look

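The response of CDH2 to expansion (overconfluent against subconfluent) differed from control in both shRNA lines by the interaction test: the log2 difference was 0.65 in MMP2sh1 (SE 0.092, edgeR adjusted p = 2.25e-05) and 0.34 in MMP2sh2 (SE 0.087, edgeR adjusted p = 0.0155). The response of CDH11 differed in MMP2sh1 by 0.47 (SE 0.11, edgeR adjusted p = 0.00802). The response of CDH6 differed in MMP2sh2 by 1.72 (SE 0.41, edgeR adjusted p = 0.00919). The CDH2 value of MMP2sh2 was the only 1 of these 4 whose call was lost in any alternative, without control overconfluent replicate 3 (0.28, adjusted p = 0.0788). In groups of 3 libraries no single library was tested as standing apart.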

How the results depend on the processing

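The number of cadherins called kept within 1.5 times its main value in 239 combinations of a comparison and an alternative and moved further in 13. It moved to 4 from 7 in overconfluent against subconfluent MMP2sh1 cells when at least 10 counts were required in every library, which leaves fewer members tested, and to 2 from 1 in subconfluent MMP2sh2 against control with all 27 libraries in 1 fit, where CDH6 gained a call; that cause was not tested. With 1 library left out the number ran from 1 to 3 in confluent against subconfluent MMP2sh2 cells, from 1 to 2 and from 2 to 4 in subconfluent and overconfluent MMP2sh2 against control, from 1 to 3 and from 1 to 2 between the shRNA lines before and at confluence, and from 1 to 2 in the MMP2sh2 interaction.

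Over all members and settings, 1553 values kept direction and call, 57 lost the call, 18 gained it and 26 changed sign. All 26 were in members not called in that comparison, with 1 library left out. Their log2 ranges over the libraries left out were, for expansion, -0.11 to 0.56 (CDH5, control, from confluence), -0.57 to 0.36 and -0.014 to 0.32 (CDH1 and CDH6, MMP2sh1, to confluence) and -0.17 to 0.19 and -0.50 to 0.11 (CDH1 and CDH6, MMP2sh2, to confluence). Against control they were -0.89 to 0.15 (CDH1, subconfluent MMP2sh1), and -0.31 to 0.21 and -0.53 to 0.39 (CDH5 and CDH6, confluent MMP2sh2). Between the shRNA lines they were -0.0718 to 0.86 (CDH1, subconfluent), and -0.0929 to 0.0475, -0.22 to 0.0376 and -0.0341 to 0.0841 (CDH4, CDH6 and CDH11, overconfluent). For interactions they were -1.80 to 2.46 (CDH1, MMP2sh1) and -4.08 to 2.38, -0.0353 to 0.0571, -1.12 to 0.50 and -0.0196 to 0.13 (CDH3, CDH4, CDH5 and CDH11, MMP2sh2). Calls gained with 1 library left out included CDH1 at confluence against control in MMP2sh1 and MMP2sh2 without control replicate 3 (adjusted p = 0.00602 and 0.0404), CDH6 there in MMP2sh1 without control replicate 1 (0.0307), and CDH13 in subconfluent MMP2sh2 against control without MMP2sh2 replicate 1 (0.0385).

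Replicate numbers did not pair the libraries: over 108 pairs of equal number the correlation of deviations from group means ran from -0.044 to 0.036. With the number as a replicate block, the counts of called cadherins stayed within 1.5 times, for example 5 in control expansion, while the CDH6 call in overconfluent MMP2sh2 against control (adjusted p = 0.0573) and the CDH2 call in MMP2sh1 expansion (0.0631) were lost, and CDH6 from subconfluent to confluent control (0.0457) and CDH4 between the subconfluent shRNA lines (0.0238) were gained. Depth limited CDH1, CDH3 and CDH5, where a library often held under 20 counts.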
